A study of Mus musculus with 2 samples.

Results

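The genes described here are 10 mouse splicing factors, Srsf1 to Srsf7, Srsf11, Tra2a and Tra2b, each followed through its annotated coding and noncoding transcripts. Membership follows a list of gene symbols, with no threshold on any value. Their positions in GRCm38 are chr11:88047373-88053755 (Srsf1, plus strand), chr11:116849901-116853094 (Srsf2, minus), chr17:29032628-29043373 (Srsf3, plus), chr4:131873617-131901706 (Srsf4, plus) and chr12:80945504-80950507 (Srsf5, plus). The others lie at chr2:162931528-162937121 (Srsf6, plus), chr17:80200080-80207307 (Srsf7, minus), chr3:158010473-158036639 (Srsf11, minus), chr6:49243924-49264033 (Tra2a, minus) and chr16:22244549-22266005 (Tra2b, minus). All 10 symbols were found in the transcript tables, where they hold 84 of 141767 annotated transcripts and 10 of 55450 genes. RNA came from bone-marrow-derived macrophages of C57BL/6J mice, cells grown from marrow rather than a cell line. The cells received 100 ng/ml lipid A, the bacterial endotoxin core that Toll-like receptor 4 recognises, for 12 h, were then kept without it for 12 h, and received 100 ng/ml lipid A again for 25 min. Nucleoplasmic RNA (called nuclear in another label) was depleted of ribosomal RNA and sequenced as total RNA in 2 libraries labelled as biological replicates. Both libraries come from this single treated group and carry the same donor entry, and sex and age were not collected. The starting amount was 500 ng for replicate 1 but 1 µg for replicate 2, so an effect of the amount cannot be told apart from the replicate. No untreated, cytoplasmic or whole-cell sample was analysed here, so nothing below compares treatments or compartments.

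SR proteins are RNA-binding proteins with an arginine- and serine-rich domain that mark exons for the spliceosome. SRSF1 to SRSF7 are classical SR proteins, SRSF11 is an SR-related protein, and TRA2A and TRA2B are SR-like proteins that bind GAA-rich RNA. Genes of this family are known for unproductive splicing, in which a "poison" exon with an early stop codon is included or an intron is kept. An RNA with such a stop is degraded in the cytoplasm by nonsense-mediated decay (NMD), while intron-retaining RNA often stays in the nucleus. The annotation labels these products by biotype: protein_coding, retained_intron, nonsense_mediated_decay, and processed_transcript for noncoding RNAs of no other class.

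The sequences that define the NMD transcripts are shown first. In 7 of the 10 genes an annotated NMD transcript carries an extra exon, absent from the reference coding transcript, in which the reading frame meets a stop codon. The reference coding transcript is the one with the best principal-isoform tag in the annotation, with ties settled by the highest mean level. Each line gives the exon from its first base to the stop codon, 5′ to 3′ on the strand of the gene, with the stop codon in capitals, read from the GENCODE M21 transcripts (GRCm38). The stretches lie at chr6:49252965-49253108 (Tra2a, minus strand), chr16:22259181-22259261 (Tra2b, minus), chr17:29039454-29039487 (Srsf3, plus), chr4:131884276-131884390 (Srsf4, plus), chr2:162932815-162932966 (Srsf6, plus), chr17:80205054-80205081 (Srsf7, minus) and chr3:158024209-158024231 (Srsf11, minus).
Tra2a-202: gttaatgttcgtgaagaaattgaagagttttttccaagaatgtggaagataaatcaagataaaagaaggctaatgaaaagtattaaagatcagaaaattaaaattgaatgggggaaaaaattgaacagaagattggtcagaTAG
Tra2b-206: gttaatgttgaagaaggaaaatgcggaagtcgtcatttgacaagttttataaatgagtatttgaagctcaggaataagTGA
Srsf3-201: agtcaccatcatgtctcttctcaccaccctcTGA
Srsf4-203: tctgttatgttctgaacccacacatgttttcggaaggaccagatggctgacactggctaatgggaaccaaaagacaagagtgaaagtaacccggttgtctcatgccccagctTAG
Srsf6-201: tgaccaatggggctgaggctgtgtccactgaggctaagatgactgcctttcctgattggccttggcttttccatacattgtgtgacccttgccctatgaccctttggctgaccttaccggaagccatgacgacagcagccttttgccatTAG
Srsf7-203: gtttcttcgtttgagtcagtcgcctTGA
Srsf11-206: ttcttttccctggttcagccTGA

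The whole exons are 306 bases long in Tra2a, 276 in Tra2b, 456 in Srsf3, 207 in Srsf4, 268 in Srsf6, 460 in Srsf7 and 109 in Srsf11. Srsf11 has another such exon of 117 bases in the same intron. In both Tra2 genes the exon lies in intron 1, and both exons open with the same bases, gttaatgtt. The motif GAAGAA, searched on the transcript strand with overlaps counted, occurs 4 times in the whole Tra2a exon, 3 times in that of Tra2b and 1 time in that of Srsf7. It is found 0 times in the exons of Srsf3, Srsf4, Srsf6 and Srsf11. Of 1317 inner NMD exons that lie inside an intron of a reference coding transcript, over all genes, 119 (9.04%) hold it. The median length of the 1317 exons is 106 bases, shorter than the exons of Tra2a, Tra2b and Srsf7, so that share is not matched for length. Srsf5 has an NMD transcript without such an exon. Srsf2-202 has an extra exon of 104 bases that lies after the stop codon, so that the stop is followed by a further splice junction. Srsf1-204 and Srsf2-204 have no extra exon, and their stops lie 80 and 113 bases before the last junction.

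Summed over the 10 genes, more TPM lay on noncoding than on coding transcripts in these libraries. Srsf5, Srsf11 and Srsf2, the genes with the highest TPM, weigh most in that sum. Srsf1 (53.8% and 71.1%) and Srsf4 (68.7% and 61.2%) had most of their own TPM on coding transcripts. Levels are given in TPM, a unit that divides counts by transcript length and scales every library to the same total. Retained-intron transcripts held 51.5% of the summed TPM of the 10 genes in replicate 1 and 48.6% in replicate 2. Coding transcripts held 27.4% and 34.4%, NMD transcripts 7.27% and 6.36%, and processed transcripts 13.8% and 10.6%. The order of the first 2 classes was the same when expected counts were used, which are not divided by length: retained-intron transcripts held 56.6% and 55.7%, coding transcripts 35.0% and 36.4%. By counts the processed transcripts held only 2.99% and 3.07%, since most are short. Of 31 retained-intron transcripts, 26 reached 1 TPM in both libraries, against 19 of 27 coding, 7 of 18 NMD and 4 of 8 processed transcripts. The same counts were not made for other genes, so they do not set the SR factors apart. Reads of unspliced precursor RNA and of finished RNA that keeps an intron cannot be told apart in these tables, and in bulk samples fewer cells with an RNA and less RNA per cell cannot be told apart either.

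The libraries held 20196408 and 19588980 expected counts, of which the 10 genes took 0.190% and 0.159%. The counts of the 2 libraries differed by far more than sampling noise (chi-square per degree of freedom 74.7), so they were treated as separate samples. All 10 macrophage markers were above 1 TPM in both libraries, against 0 of 8 lymphocyte, 0 of 8 neutrophil and 1 of 12 erythroid, mast cell and stromal markers, where summed TPM was at most 2.94 per list. With 1 group of 2 libraries no test between groups is possible. Values are given for each library or as mean ± SD (n = 2), and the SD measures only the spread of these libraries, which may be technical.

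All 10 genes were well expressed, and the order of their levels had a clear top and bottom. Srsf5 stood at 246 TPM in replicate 1 and 220 in replicate 2, Srsf11 at 249 and 136, and Srsf2 at 193 and 128. Next came Tra2b with 82.6 and 59.2 TPM, Tra2a with 82.2 and 52.6, Srsf3 with 63.2 and 53.4, and Srsf1 with 68.7 and 33.6. The ranges of these 4 genes over the libraries overlapped, so their order is not settled. Srsf6, at 48.5 and 36.4 TPM, overlapped only with Srsf1. Srsf7 (25.8 and 21.2 TPM) and Srsf4 (19.2 and 17.6 TPM) formed the bottom and did not overlap with any other gene or with each other. The median over the 10 genes was 75.5 and 53.0 TPM, against 9.38 and 7.83 TPM over 11365 protein-coding genes with at least 10 expected counts in both libraries.

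**Figure D1:**
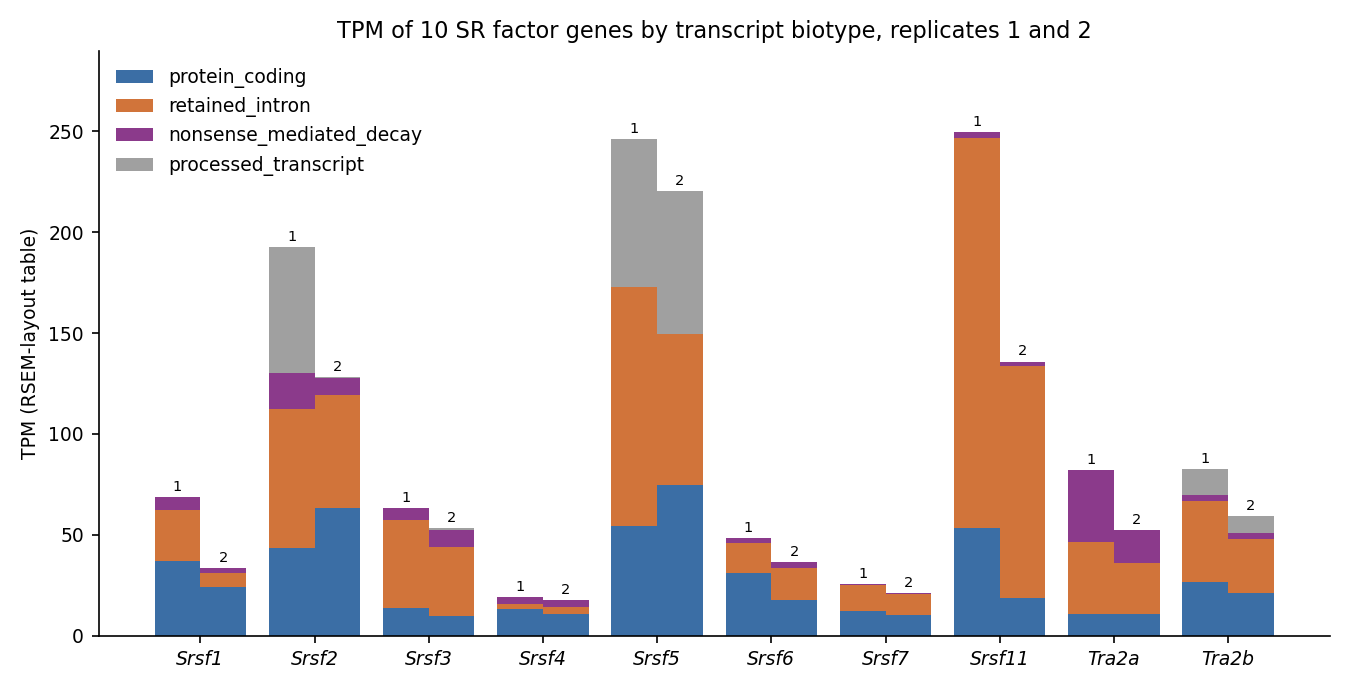
Gene level in TPM (y axis) of the 10 SR factor genes (x axis), with replicate 1 and replicate 2 as paired bars split by transcript biotype. The tallest bars are those of Srsf5 and Srsf11, and the retained-intron segment of Srsf11 is the largest single segment in both libraries.

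All 10 genes had a lower TPM in replicate 2, as did the median detected gene, whose log2 ratio of replicate 2 to replicate 1 was -0.28. Relative to that median, 7 of the 10 were lower and 3 higher in replicate 2, from -0.75 for Srsf1 to 0.15 for Srsf4. None of the 10 (0) was 2-fold apart after this centring, while 8.83% of 14587 detected genes were. Before centring Srsf1 was past 2-fold, at -1.03, as were 11.4% of detected genes.

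Srsf3 and Srsf11 had most of their TPM on transcripts of the retained_intron biotype, which need not hold a whole intron. Srsf3, the gene of the smallest classical SR protein, had retained-intron shares of 69.3% and 64.4% of its TPM, and Srsf11 had 77.4% and 84.5%. These were the only 2 of 10 members with at least 50% in both libraries, where 11.6% of 5493 genes with a coding and a retained-intron transcript were past that share. Srsf7 (49.9% and 47.9%) and Tra2b (48.5% and 44.5%) lay just outside. Over the members, the median share was 45.8% and 44.4%, against 25.2% and 26.4% over those 5493 genes, members included. In that set Srsf11 had a higher mean share than 98.9% of genes and Srsf4 than 32.4%, with the other 8 between.

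By expected counts, 4 of 10 members had at least 50% in both libraries, Srsf3, Srsf5, Srsf11 and Tra2a, against 9.47% of the 5493 genes. Srsf5 had 74.5% of its counts on retained-intron transcripts in replicate 1 (73.6 to 75.4%, a 95% Wilson interval) and 59.1% of them in replicate 2 (57.9 to 60.2%). Tra2a had 59.8% (58.3 to 61.3%) and 64.6% (62.8 to 66.2%). Srsf1 moved the other way, from 36.6% and 21.4% by TPM to 8.26% (7.36 to 9.26%) and 4.04% (3.27 to 4.99%) by counts. Its main retained-intron transcript, Srsf1-203, is 759 bases long, against 5362 bases for the coding Srsf1-205, so few reads give it a high TPM. These intervals cover counting error only, and for 7 of 10 genes those of the 2 libraries did not overlap. That count was not made for other genes, so it does not set the SR factors apart.

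**Figure D2:**
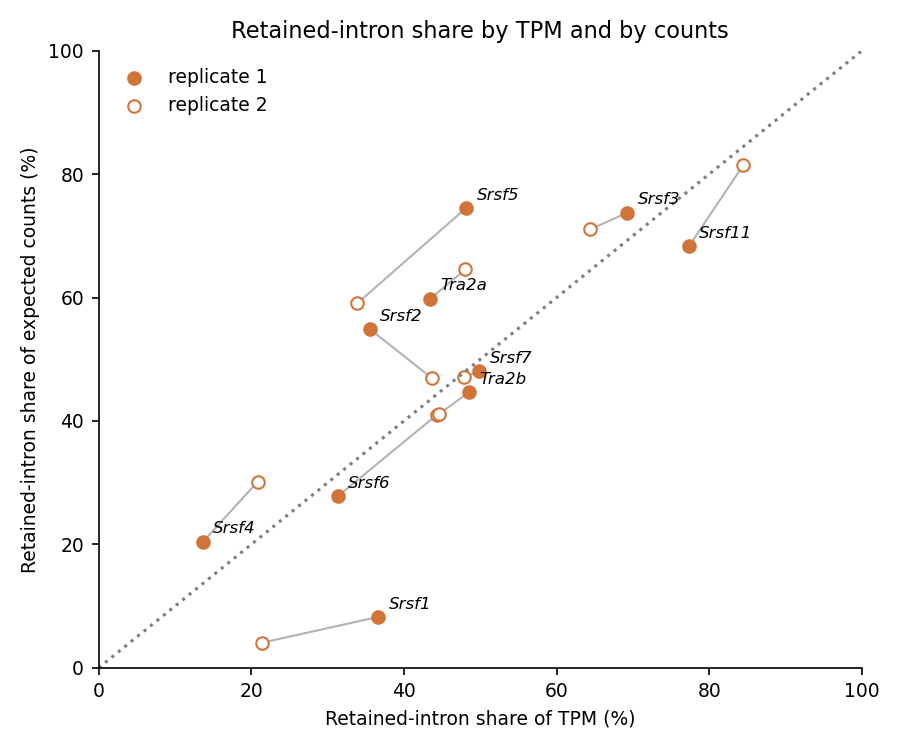
Retained-intron share of each gene by TPM (x axis, %) and by expected counts (y axis, %), with replicate 1 filled, replicate 2 open and a grey line joining the pair; the dotted line marks equal shares. Srsf1 lies far below the line, at 8.26% and 4.04% by counts, while Srsf5 and Tra2a lie above it.

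Coding transcripts made up less than 50% of TPM in both libraries in 7 of 10 members, Srsf2, Srsf3, Srsf5, Srsf7, Srsf11, Tra2a and Tra2b. Of 5968 genes with a coding and a retained-intron or NMD transcript, 21.6% were in that range. In the kallisto-layout table, a separate quantification made from the reads, 6 of 10 members and 36.0% of those genes were below 50%, so the background is much higher there. The lowest coding shares were those of Tra2a (12.9% and 20.3%) and Srsf11 (21.5% and 13.8%). The highest were those of Srsf1 (53.8% and 71.1%) and Srsf4 (68.7% and 61.2%). The median was 27.5% in replicate 1 and 42.3% in replicate 2, and over the 5968 genes it was 67.0% and 66.4%.

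**Figure D3:**
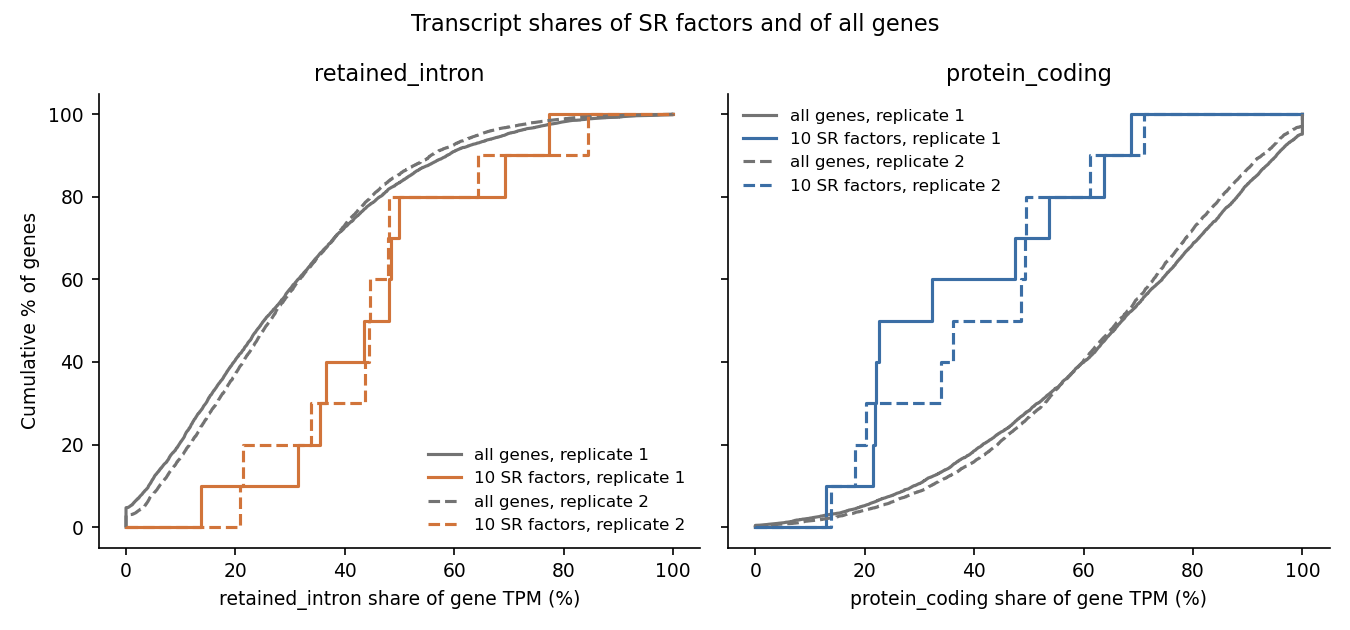
Cumulative percent of genes (y axis) against the share of gene TPM (x axis, %) on retained-intron transcripts (left) and coding transcripts (right); coloured steps are the 10 SR factors, grey curves all genes of the matching set, solid for replicate 1 and dashed for replicate 2. The SR factors lie to the right of all genes for retained introns (medians 45.8% and 44.4% against 25.2% and 26.4%) and to the left for coding transcripts.

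Tra2a had the highest NMD share of the 10 genes. TRA2A promotes inclusion of exons with GAA-rich sequence, and its only NMD transcript, Tra2a-202, carries the exon printed above. Tra2a-202 had 35.9 TPM (deposited credibility interval 30.9 to 37.7) in replicate 1 against 16.6 TPM (13.5 to 18.5) in replicate 2, with intervals that did not overlap. The 2 coding transcripts were lower, at 7.26 and 5.07 TPM for Tra2a-201 and 3.36 and 5.60 TPM for Tra2a-204. Tra2a-202 was above each coding transcript in both libraries. The NMD share of Tra2a was 43.6% and 31.7% of TPM and 32.2% and 23.0% of counts. The kallisto-layout table gave 55.6% and 46.6% of TPM, with only 1.77% and 6.08% on coding transcripts.

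Tra2a was the 1 member of 10 with an NMD share of at least 20% of TPM in both libraries, where 12.3% of 2721 genes with a coding and an NMD transcript were past that share. Srsf4 lay just outside, at 17.7% and 18.0%. In the kallisto-layout table Srsf4 (29.2% and 26.8%) and Tra2a were both past it, 2 of 10 members against 16.1% of those genes. The median NMD share of the 10 members was 6.91% and 6.95%, against 2.88% and 4.03% over the 2721 genes. In the kallisto-layout table the medians lay closer together, at 7.34% and 8.32% for the members and 6.70% and 8.15% for all.

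The Tra2a retained-intron RNA was mainly a different part of the gene. Tra2a-203, at 32.2 and 22.4 TPM, runs from exon 1 for 3595 bases into intron 1 and ends there, without reaching the poison exon. Tra2a-205, which holds the whole of intron 5 (1238 bases), had 3.58 and 2.84 TPM.

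Tra2b, whose exon opens with the same bases, had much less NMD transcript. TRA2B is the closest relative of TRA2A. Tra2b-206 had 2.78 TPM (1.56 to 4.14) and 3.17 TPM (1.86 to 4.39), and the NMD share of Tra2b was 3.36% and 5.78%. Its leading retained-intron transcript, Tra2b-203, had 32.7 and 19.1 TPM, and it joins exon 1 to the 276-base poison exon and then runs on into the intron, with 1198 bases of intron 1 in all. The coding Tra2b-204 had 16.7 and 12.7 TPM, and the coding Tra2b-201 had 10.05 and 8.67 TPM. The sequence of the poison exon was thus present in an RNA counted as retained intron, at a higher TPM than Tra2b-204 in each library. Together the coding transcripts held 32.4% and 36.1% of Tra2b TPM, against 39.6% and 32.3% for Tra2b-203, so that order changed between the libraries. Tra2b-208, a single block that holds introns 5 and 6 whole, had 6.38 and 4.93 TPM. The processed pseudogene Tra2b-ps had 0 counts in both libraries.

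**Figure D4:**
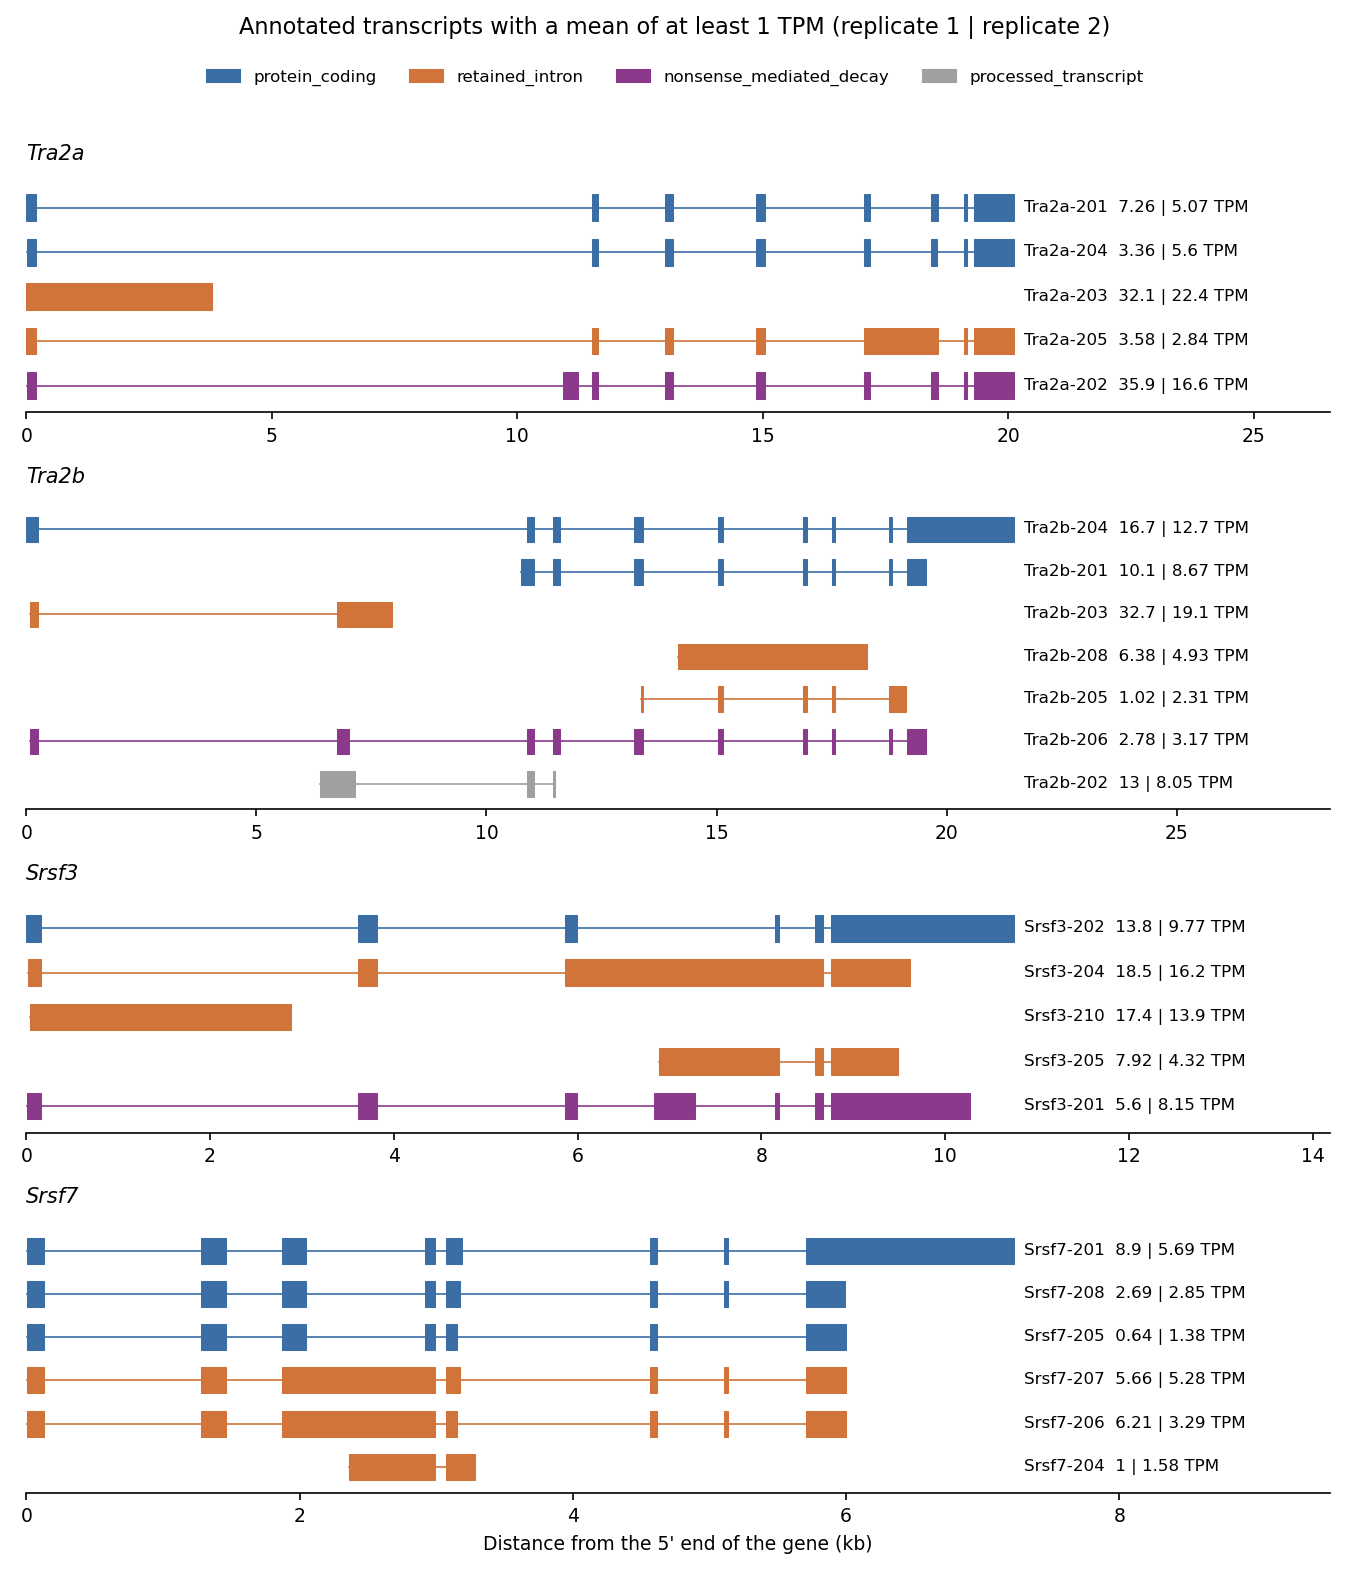
Exons (boxes) and introns (lines) of the annotated transcripts with a mean of at least 1 TPM in Tra2a, Tra2b, Srsf3 and Srsf7, against distance from the 5′ end of the gene (x axis, kb), coloured by biotype, with TPM in replicate 1 and replicate 2 at the right. The NMD transcript of Tra2a, at 35.9 and 16.6 TPM, differs from the coding form by 1 extra box before the exon at about the middle of the gene.

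In Srsf3, Srsf6 and Srsf7 the intron that holds the poison exon was also retained whole. Srsf3-204 keeps introns 3 and 4 (2150 and 393 bases) and had 18.5 and 16.2 TPM (29.3% and 30.3% of the gene), above the coding Srsf3-202 with 13.8 and 9.77 TPM. The poison-exon transcript Srsf3-201 had 5.60 TPM (3.91 to 6.52) and 8.15 TPM (6.27 to 9.08). It was higher in replicate 2, but the intervals overlapped. Another Srsf3 transcript, Srsf3-210, starts in exon 1, ends in intron 1 and had 17.4 and 13.9 TPM.

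SRSF6 is a longer SR protein with a pair of RNA-recognition motifs. Srsf6-204, which holds intron 2 (1283 bases), had 15.2 and 16.1 TPM, while the coding Srsf6-203 had 30.9 and 17.7 TPM. The retained-intron share was 31.3% in replicate 1 and 44.3% in replicate 2, with Srsf6-204 at a like level in both and Srsf6-203 lower in replicate 2. The poison-exon transcript Srsf6-201 was at 2.41 and 2.57 TPM, or 4.97% and 7.07% of the gene.

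SRSF7 carries a zinc knuckle beside its RNA-recognition motif. Srsf7-206 and Srsf7-207 keep intron 3 (874 bases), and together had 11.9 and 8.57 TPM, while the highest coding transcript, Srsf7-201, had 8.90 and 5.69 TPM. All coding transcripts of Srsf7 together held 47.4% and 49.4% of its TPM, and all its retained-intron transcripts 49.9% and 47.9%, so neither class led in both libraries. Its retained-intron share differed least between the libraries of all 10 members, at 48.9% ± 1.43 (SD, n = 2). Srsf7-203, with the poison exon, had 0.690 and 0.570 TPM, from 24.2 and 22.3 expected counts.

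SRSF2 acts both in splicing and in transcription elongation. Its main noncoding RNA, Srsf2-203, keeps intron 2 of 1059 bases, which lies in the 3′ untranslated region, and had 68.5 and 56.0 TPM. The coding Srsf2-201, at 36.5 and 47.0 TPM, was below the retained-intron transcript in both. All coding transcripts together held 22.7% of the gene's TPM in replicate 1, below the 35.5% of Srsf2-203. In replicate 2 they held 49.2%, above its 43.6%. The 104-base exon of that intron is in 2 transcripts with the same splice junctions. Srsf2-202, labelled NMD, was at 0 in both libraries, while Srsf2-206, labelled coding, had 7.25 and 16.2 TPM, or 3.76% and 12.6% of the gene. The NMD share came from Srsf2-204 with 17.9 and 8.75 TPM. Srsf2-205, a processed transcript of 433 bases, stood at 62.7 TPM (265 counts) in replicate 1 but 0.430 TPM (2.33 counts) in replicate 2. It alone was 32.5% of the gene's TPM in replicate 1, when the coding share was 22.7% against 49.2% in replicate 2. Exons of Mettl23, on the opposite strand, overlap 56.8% of the bases of Srsf2-205 and 72.3% of those of Srsf2-204. Mettl23 itself had 3.90 and 4.71 TPM (117 and 113 counts). Mfsd11, also on the opposite strand, had 60.0 and 49.2 TPM, and its exons overlap 15.2% of Srsf2-201 and 21.7% of Srsf2-206. The strand setting is not given in the sources used here, and the part of such reads was not tested.

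Srsf5 had the most abundant noncoding transcript of the family. SRSF5 is an SR protein closely related to SRSF4 and SRSF6. Srsf5-212, which keeps intron 5 of 1229 bases, had 96.3 TPM (88.3 to 95.6) and 60.6 TPM (54.6 to 60.6). The deposited interval accompanies the posterior mean, so an estimate can lie at or past its edge. The same intron is whole in Srsf5-207 and Srsf5-209, and all 3 together had 119 and 74.7 TPM. The coding Srsf5-201 was higher in replicate 2 (41.8 TPM) than in replicate 1 (22.4 TPM), while Srsf5-202 was level at 27.1 and 26.8 TPM. Processed transcripts took 29.7% and 32.2% of Srsf5 TPM but 8.43% and 11.1% of its counts. The NMD transcript Srsf5-208 was at 1.47 and 0 counts, and a count of 0 allows up to 0.0412% of the 7287 counts in replicate 2.

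**Figure D5:**
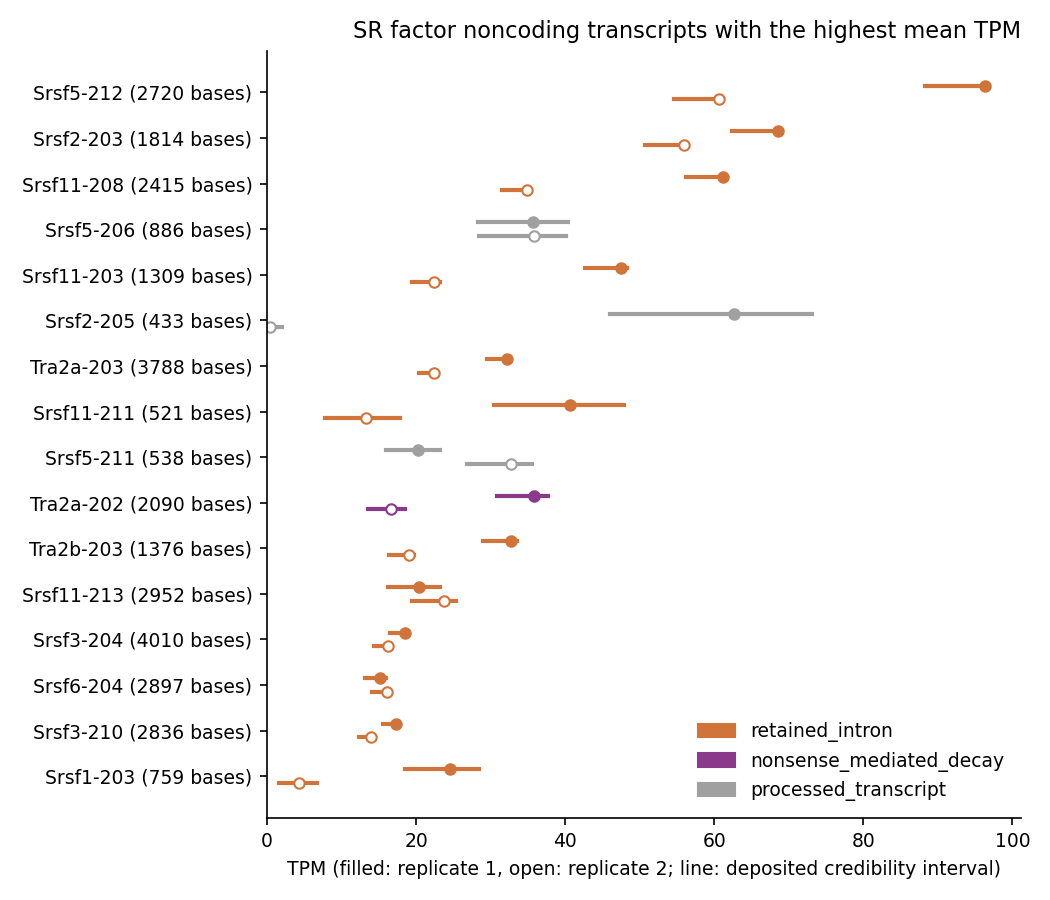
TPM (x axis) of the noncoding SR factor transcripts with the highest mean TPM (y axis, with their length in bases); filled points are replicate 1, open points replicate 2, lines the deposited credibility intervals, and colours the biotype. Srsf5-212 leads at 96.3 and 60.6 TPM, and Srsf2-205 has the widest gap, with 62.7 against 0.430 TPM.

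Srsf11 had its retained-intron RNA spread over 11 annotated transcripts, of which none held a whole intron of the reference coding transcript. Srsf11-208 had 61.2 and 34.9 TPM and Srsf11-203 had 47.5 and 22.4 TPM; both start at the 5′ end of the gene and end inside intron 3, with 1988 and 887 bases of it. Srsf11-203 contains the whole 109-base poison exon. Srsf11-213, which starts inside intron 3 and continues to the 3′ end, had 20.4 and 23.8 TPM and contains the 117-base exon. Srsf11-211, a short RNA at the 3′ end with 72 bases of intron 11, had 40.7 and 13.3 TPM. Srsf11-208, Srsf11-203 and Srsf11-211 were thus lower in replicate 2, while Srsf11-213 was not. The coding Srsf11-202 had 45.8 TPM (39.0 to 47.5) and 10.9 TPM (7.22 to 13.8), a gap wider than both intervals. The highest NMD transcript, Srsf11-210, had 0.940 and 1.47 TPM. The 3 NMD transcripts together held 1.19% and 1.78% of TPM, but 13.6% and 9.15% in the kallisto-layout table.

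By RSEM-layout TPM, Srsf1 and Srsf4 had coding shares above 50% in both libraries; by expected counts Srsf6 did too (69.8% and 55.4%). SRSF1 is the founding SR protein, and its coding transcripts Srsf1-205 and Srsf1-201 had 18.5 and 9.30 TPM and 18.4 and 14.1 TPM. Srsf1-201, though labelled coding, keeps intron 3 of the reference coding transcript (196 bases). It held 26.8% and 42.0% of the gene's TPM. The retained-intron Srsf1-203 had 24.5 TPM (18.5 to 28.4) and 4.24 TPM (1.67 to 6.78), above each coding transcript in replicate 1 and below both in replicate 2. It keeps no intron of the reference coding transcript but one of another coding form. In Srsf4, the coding Srsf4-202 had 13.2 and 10.8 TPM and the retained-intron Srsf4-201 had 2.63 and 3.66 TPM. The NMD transcript Srsf4-203, with the whole 207-base exon, had 0.250 and 0.540 TPM. The NMD transcript Srsf4-204 had 3.15 and 2.62 TPM. Its annotated start, chr4:131884295, lies inside that exon, and its 96 coding bases end at the same stop codon. The kallisto-layout table put the coding share of Srsf4 at 37.0% and 43.1% in place of 68.7% and 61.2%. Exons of Gm12992 on the opposite strand overlap 67.9% of Srsf4-202 and 49.4% of Srsf4-201, and Gm12992 itself was at 1.42 and 0.930 TPM.

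The introns kept whole by retained-intron transcripts of the SR factors were longer and richer in A and T than those of all genes. Of 61 introns in the 10 reference coding transcripts, 12 (19.7%) were held whole by an annotated retained-intron transcript, against 6.74% over all genes with a coding and a retained-intron transcript. Their median length was 966.5 bases and their median GC content 39.8%, against 277.5 bases and 50.6% for the retained introns of all genes. Of the 12, 11 lie between coding exons and 1, in Srsf2, in the 3′ untranslated region. Of 31 retained-intron transcripts of the members, 10 held a whole intron, 20 only a part and 1 none. Those with a whole intron held 43.7% and 48.6% of the members' retained-intron TPM, against 31.1% and 33.8% over all genes. These are properties of the annotation weighted by the libraries, and nothing in them separates SR factors from other genes by a test.

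The 5′ splice site of the leading intron is printed for 5 genes. These had the most TPM on an intron kept whole by a retained-intron transcript. Coding transcripts that keep an intron, such as Srsf1-201, were not ranked. The first 6 intron bases, in capitals, can be set against GTAAGT, the consensus that pairs with U1 snRNA. Each line holds 3 exon bases and 12 intron bases on the strand of the gene. The introns lie at chr12:80947866-80949094 (Srsf5, plus), chr11:116850962-116852020 (Srsf2, minus), chr17:29038625-29040774 (Srsf3, plus), chr2:162932143-162933425 (Srsf6, plus) and chr17:80204388-80205261 (Srsf7, minus).
Srsf5 intron 5: cagGTTTGTtgaaat
Srsf2 intron 2: atgGTAATGtctgcg
Srsf3 intron 3: cagGTACTTgagaga
Srsf6 intron 2: gcaGTGAGTccttac
Srsf7 intron 3: cagGTATTTaattaa
Of these 5, Srsf6 intron 2 matched GTAAGT at 5 of 6 positions and the other 4 introns at 4 of 6. In Srsf3, intron 4 is kept by the same transcript, Srsf3-204, so it ties with intron 3 in TPM, and it matched at 5 of 6. Over the 12 introns kept whole the median was 5 matches, against 4 for the retained introns of all genes.

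Other genes of the splicing machinery were described in the same way. The 5 lists are background to the SR factors and were not tested. For the counts below, 11.6% of all 5493 genes had a retained-intron share of at least 50% in both libraries. Of 28 other SR and SR-related proteins, 22 could be placed and 7 had a retained-intron share of at least 50% in both libraries, with medians of 38.1% and 44.6%. U2af1, the small subunit that reads the 3′ splice site, had 71.6% and 60.9%, and Luc7l2, a U1-associated protein, had 64.7% and 63.2%. Rbm39, the list's highest gene at 360 and 316 TPM, had 48.3% and 53.2%. Of the 9 kinases and import factors of SR proteins, 3 were past 50% (medians 47.1% and 41.2%). Clk1, a nuclear kinase of SR proteins, had 57.2% and 65.4% with coding shares of only 2.32% and 6.42%, and Srpk1, a mainly cytoplasmic one, had 55.2% and 59.9%.

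Among NMD and exon junction factors, 3 of 9 that could be placed were past 50%, including Smg9 (52.1% and 66.6%) and Rbm8a (56.2% and 55.8%), while Smg1, the kinase of UPF1, had 30.1% and 22.2%. Among hnRNP and related repressors 4 of 26 were past it, among them Hnrnpll (83.1% and 75.8%) and Hnrnpa2b1 (68.3% and 57.9%), the list's highest gene at 442 and 347 TPM. Core spliceosome proteins had 4 of 29, with medians of 25.9% and 29.4%, close to those of all genes. Sf3b6 had 80.5% and 62.7%, Snrpb2 64.7% and 60.2%, and Sf3b1 56.7% and 51.2%. The median coding share was 69.9% and 70.5% in the core list and 35.4% and 35.7% in the kinase list.

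The genes whose composition was nearest to the median of the SR factors, by Euclidean distance over 6 values (coding, retained-intron and NMD shares in both libraries), were Asxl2, Gbf1, Rsrc2, Tex10 and Smchd1, out of 2246 genes with all 3 classes. Their distances ran from 10.1 to 12.2 percentage points. Asxl2 had coding shares of 27.2% and 35.1% and retained-intron shares of 48.3% and 47.3%. Rsrc2, which encodes an arginine- and serine-rich protein, had 28.3% and 32.7% coding and 41.1% and 43.5% retained intron.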

How the data were processed

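Nucleoplasmic total RNA of 2 libraries of 1 treated group was quantified by the submitters in 3 tables per library. Per the deposited file notes, the expected counts of genes and of transcripts come from transcriptome alignments to mm10 with the GENCODE M21 annotation. The deposited TPM and posterior mean TPM stand in the same tables, with upper and lower credibility bounds (a deposited signal, with no level stated). Another deposited table holds estimated counts and TPM made from the reads. The former tables have the RSEM layout and the latter the kallisto layout. The strand setting is not given in the sources used here, nor is any program named.

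All 141767 transcripts matched between the tables. Shares are transcript TPM (or counts) of a biotype over all transcripts of the gene, and genes entering the comparison sets had at least 100 expected counts in both libraries. Levels used log2(TPM + 1) and ratios a minimum of 10 counts. Counts were rounded for the 95% Wilson intervals and for the scaling factors of edgeR 4.0.16 (TMM) and DESeq2 1.42.0 in R 4.3.3; no test was run with either. Python 3.11.15 with pandas 2.3.3, numpy 2.4.6 and scipy 1.17.1 did the rest. Tested on simulated data with a 4-fold rise of retained-intron transcripts in 200 of 5493 genes, the retained-intron share missed its true value by a median of 1.28 percentage points. The simulation held only counting noise per transcript, so errors in assigning reads among overlapping transcripts are not in this figure. Between the quantifications shares could differ far more: Srsf4 had 13.7% and 20.8% retained intron in the RSEM layout but 33.8% and 30.1% in the kallisto layout. The text names all members, the highest transcript of each of the 3 classes per member together with further transcripts chosen after their values were seen, the highest gene and the 2 highest retained-intron shares of each list, and the 5 nearest genes. A list gene under that rule is not reported here. Members and lists were chosen with earlier results of these data known.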

Additional observations from a re-analysis of the deposited data

How the results depend on the processing

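Of 52 recomputed values of the members' levels, shares and counts, 37 stayed within the spread of the libraries and 15 moved past it. For counts the limit was 1.5 times. Leaving out 1 library cannot move a share or the level past that spread, which comes from the same 2 libraries. The 37 include these checks, so the tally does not measure robustness. The coding share stayed within its spread at every setting, but that spread was wide, with medians of 27.5% in replicate 1 and 42.3% in replicate 2. The median retained-intron share of the 10 members, 45.1% as the mean of both libraries, was 49.3% by expected counts, 50.2% by kallisto-layout estimated counts, 46.8% over transcripts of at least 500 bases and 49.6% with processed transcripts left out. The median NMD share of 6.93% became 7.83% with kallisto-layout TPM, 7.35% with posterior mean TPM, 3.08% by expected counts and 3.58% by kallisto-layout estimated counts. Members with at least 50% retained intron numbered 4 in place of 2 by either kind of count, and those with at least 20% NMD 2 in place of 1 with kallisto-layout TPM. The median level of 6.00 on the log2 scale was 4.46 with kallisto-layout TPM, 7.24 with TMM-normalised CPM and 11.54 with counts over DESeq2 size factors; the last 2 are not divided by length, so the scale differs. Without centring, 1 member in place of 0 was 2-fold apart, where 11.4% of 14586 detected genes were. Each library alone gave median retained-intron shares of 44.4 to 45.8%, NMD shares of 6.91 to 6.95% and coding shares of 27.5 to 42.3%. No paired analysis was possible because there is 1 group. The NMD median of all genes, 3.45%, was 2.58% when any count above 0 sufficed. Several NMD transcripts rest on few expected counts. Those of Srsf5, Srsf7 and Srsf11 have at most 24.2 each in a library, and Srsf4-203 has 3.10 and 7.80. Srsf11-210 was 0.377% and 1.08% of its gene's TPM, but 13.2% and 8.62% in the kallisto-layout table. Srsf4-203 was 1.30% and 3.07%, but 12.7% and 11.6% there. Srsf7-203 was not higher there, at 1.27% and 2.41% against 2.68% and 2.69%.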

Other observations

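In the kallisto-layout table the median detected gene had a log2 ratio of replicate 2 to replicate 1 of -2.28 in TPM, against -0.28 in the RSEM-layout table. None (0) of the 10 SR factors was 2-fold apart from that median in the kallisto-layout table, where 6.32% of 14544 detected genes were. Levels in that table were therefore used only for this ratio, this count and the median level of 4.46 given above, a mean of both libraries. Elsewhere only shares within a gene were used.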
